A study of Mus musculus with 25 samples.

Results

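Lungs of mice lacking FP, the receptor for prostaglandin F2α, were compared with wild type (WT) lungs 7 days after bleomycin, at the inflammatory stage of the injury. The comparison uses 8 of the 25 arrays of the series, 4 from FP-KO mice and 4 from WT mice on Day 7, chosen by the genotype and day in their labels. The mice were female and received bleomycin, a DNA-damaging drug that causes inflammation and then fibrosis of the lung, into the trachea at 1 mg/kg in 40 ul of saline on Day 0. FP-KO mice lack FP in every labelled group, and the 4 FP-KO and 4 WT lungs of Day 0, labelled as baseline, served as the reading before the injury developed. The labels do not say whether the Day 0 lungs were taken before or after an instillation. Strain, age and the way FP was deleted are not given in the sources used here. Each array is 1 lung RNA, read on an Affymetrix mouse array as intensities of probe sets. A probe set is a group of oligonucleotides that match 1 or more transcripts.

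Prostaglandin F2α is made from arachidonic acid by cyclooxygenases and a terminal synthase, acts on FP at the cell surface, and is broken down by 15-hydroxyprostaglandin dehydrogenase. FP couples to the G protein Gq, which raises intracellular calcium and activates protein kinase C, and in cultured cells it induces the matricellular genes Ccn1 and Ccn2 and the transcription factors Egr1 and Nr4a1. FP is best known from the regression of the corpus luteum, the contraction of the uterus and the lowering of eye pressure, and in the lung its ligand contracts airways and vessels.

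All values are from whole lung, in which fewer cells of a type and less RNA per cell cannot be told apart. Array medians on Day 7 lay between 112.3 and 141.6 on a scale where each array has a trimmed mean of 500, and the 3' to 5' ratio of actin, a reading of RNA integrity, lay between 1.18 and 1.35. The array of FP-KO mouse No. 2 had an 18S signal of 1112.3, against 233.9 to 336.9 on the other 7. In both genotypes mice No. 1 and 2 stood apart from mice No. 3 and 4, so differences within each of these sets are given for the main results; no label says what the sets are. The first principal component of the 16 arrays of Day 0 and Day 7, with 55% of the variance, separated the days, and on it the FP-KO lungs of Day 7 scored 30.2, 30.3, 17.3 and 7.22, against 34.2, 38.3, 21.1 and 26.3 for WT lungs. FP-KO mouse No. 4 therefore lay nearest to the Day 0 lungs, which scored -30.7 to -21.1. All 22 alveolar type 2 markers on the array, the surfactant genes among them, passed the filter on low values, and their mean log2 intensity per lung was 12.97 to 13.23 in FP-KO lungs and 12.68 to 13.2 in WT lungs.

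Few single genes passed the test of the genotype difference on Day 7. Of 12062 genes tested, 2 were higher in FP-KO lungs (0.0166%) and 2 were lower (0.0166%) at an adjusted p under 0.05, 4 in all (0.0332%). At an unadjusted p under 0.05 the counts were 585 higher (4.85%) and 513 lower (4.25%). The 4 FP-KO lungs did not overlap the 4 WT lungs in 323 genes that were higher (2.68%) and 329 that were lower (2.73%) on the normalized log2 scale. The median difference over all genes was 0.0048. Of 2843 probe sets without a gene symbol, tested apart, 0 passed in limma and 125 had an unadjusted p under 0.05 (4.4%). The 4 genes were Ptgfr and Thbs4, which fell in FP-KO lungs, and Ifi44l and St6galnac5, which rose. Here and below differences are FP-KO minus WT in log2 units, ± gives limma's standard error, intensities are as deposited with mice No. 1 to 4 in that order, and "higher" or "lower" without a named call describes a value that did not pass. Overlap of the groups is judged on the normalized scale unless stated, and the deposited intensities of some genes said not to overlap do overlap. With 4 arrays a group, their number limits the precision.

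Ptgfr encodes FP itself and checks the labels. It read 41.6, 41.3, 44.0 and 45.9 in FP-KO lungs of Day 7, against 140.0, 122.6, 229.2 and 200.1 in WT lungs, and every FP-KO lung lay below every WT lung. The difference was -1.95 ± 0.22 (adjusted p = 0.001435, limma), a 3.87-fold higher signal in WT. On Day 0 the FP-KO lungs read 56.9, 33.9, 57.6 and 34.4, against 258.6, 308.4, 383.7 and 265.4 in WT lungs, a difference of -2.86. Day 7 minus Day 0, the transcript differed by 0.07 in FP-KO lungs and by -0.83 in WT lungs, where the fall passed (adjusted p = 0.00864). The other 4 probe sets of Ptgfr gave Day 7 differences of -2.69, -0.84, -1.28 and -1.37. Which part of the gene each probe set reads was not analysed here.

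The genes that rose, Ifi44l and St6galnac5, lie near Ptgfr on chromosome 3. Ifi44l, an interferon-inducible gene, is next to Ptgfr in the reference order of the genes tested. It read 392.4, 445.1, 375.1 and 439.6 in FP-KO lungs on Day 7, against 27.9, 2.3, 33.9 and 1.6 in WT lungs, where the lowest lie under the floor of 24.3 set before taking logs. The difference was 3.96 ± 0.11 (adjusted p = 3.768e-12, limma), and it runs from 2.46 to 4.72 with other settings of the floor, so its size depends on the floor. FP-KO lungs already read 193.0, 203.9, 211.8 and 253.6 on Day 0, against 2.3, 2.4, 12.6 and 28.8 in WT lungs, a difference of 3.07 (adjusted p = 1.829e-10). Within FP-KO lungs it rose by 1.03 between Day 0 and Day 7 (adjusted p = 2.832e-05), and WT lungs stayed near the floor. Of 35 interferon-stimulated genes tested, the other 34 did not pass.

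St6galnac5, a sialyltransferase that adds sialic acid to gangliosides, is the tenth tested gene from Ptgfr on the other side. It read 143.3, 234.5, 165.3 and 207.9 in FP-KO lungs, against 70.1, 66.0, 111.1 and 76.6 in WT lungs, with no overlap. The difference was 1.25 ± 0.20 (adjusted p = 0.04282, limma), a 2.37-fold higher signal, and 0.23 on Day 0. Day 7 minus Day 0, it differed by 0.02 in FP-KO lungs and fell by 1.00 in WT lungs (adjusted p = 0.001229). With the mouse number as a block the adjusted p was 0.151, and the call held in 6 of the 23 alternatives that tested it. It was lost without any 1 of FP-KO mice No. 2, 3 and 4 or WT mice No. 1, 2 and 4 (adjusted p of 0.0583 to 0.19). Between these genes Gipc2, the first tested on that side, read 950.7, 881.9, 872.0 and 1030.4 in FP-KO lungs, against 1495.3, 995.9, 1595.8 and 1460.0 in WT lungs, -0.54 on Day 7 (adjusted p = 0.262) and -0.76 on Day 0 (adjusted p = 0.05917). Nexn, the fourth, encodes an actin-binding protein and differed by -0.58 (adjusted p = 0.3325) and Adgrl4, the second on the Ifi44l side, an endothelial adhesion receptor, by 0.26 (adjusted p = 0.5348). The other 15 tested genes within 10 places of Ptgfr had unadjusted p-values of 0.02296 to 0.9643. Whether the differences at these neighbours follow from the loss of FP or from the DNA around the deleted gene cannot be told apart in this design.

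Thbs4 was the gene outside the neighbourhood of Ptgfr that passed. It encodes thrombospondin-4, a matricellular glycoprotein of tendon and injured tissue. It read 86.9, 80.5, 97.0 and 43.9 in FP-KO lungs, against 260.6, 248.7, 220.2 and 171.3 in WT lungs, and the groups did not overlap. The fall was -1.58 ± 0.23 (adjusted p = 0.01711, limma), a 2.99-fold higher signal in WT, with -1.54 among mice No. 1 and 2 and -1.61 among mice No. 3 and 4. The call is lost without WT mouse No. 1 (adjusted p = 0.111) or No. 2 (adjusted p = 0.0844) and with a lower floor (adjusted p = 0.344), and it held in 14 of the 23 alternatives that tested it. On Day 0 it read 35.2, 8.4, 5.1 and 6.4 in FP-KO lungs and 7.1, 4.0, 20.4 and 8.6 in WT lungs, near the floor throughout. Thbs4 rose by 1.48 in FP-KO lungs (adjusted p = 0.0003612) and by 3.21 in WT lungs (adjusted p = 2.499e-07) by Day 7. The difference between these rises, -1.73 ± 0.32, had an adjusted p of 0.2883 and an unadjusted p of 7.171e-05.

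Col1a1, the pro-alpha1 chain of type I collagen and the main fibrillar collagen of scar, came next among the lower genes without passing. It read 3496.7, 2325.0, 3685.2 and 2666.0 in FP-KO lungs, against 4654.4, 5319.0, 5406.6 and 5518.2 in WT lungs, with no overlap. The difference was -0.81 ± 0.14 (adjusted p = 0.09148). On Day 0 its sign was opposite, at 0.47, and the interaction of genotype and day was -1.28 ± 0.20 (adjusted p = 0.1303). Its second probe set, at 663.9 to 909.3 in FP-KO lungs and 687.2 to 788.3 in WT lungs, differed by 0.11, so the probe sets of Col1a1 disagree. Their disagreement was not resolved here.

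**Figure D1:**
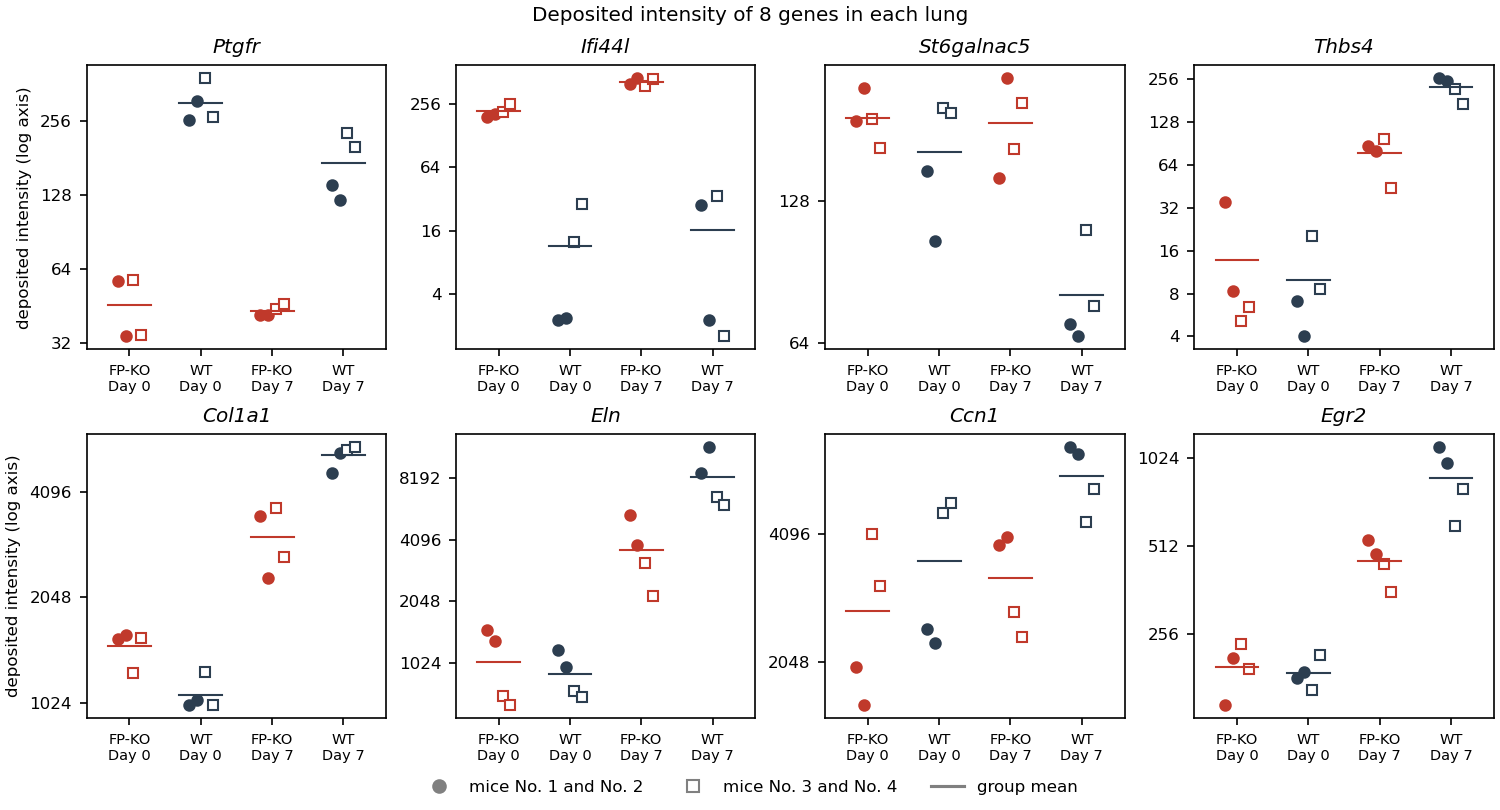
Deposited intensities (log axis) of 8 genes in FP-KO and WT lungs on Day 0 and Day 7, 1 point per mouse, with filled circles for mice No. 1 and 2, open squares for mice No. 3 and 4 and a bar at the mean of each group of 4. Ptgfr is low in every FP-KO lung on both days, Ifi44l is high in every FP-KO lung on both days, and for Thbs4, Col1a1, Eln, Ccn1 and Egr2 every FP-KO lung of Day 7 lies below every WT lung of Day 7.

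Ccn1 and Ankrd1 were lower in FP-KO lungs without passing. Ccn1, a secreted matricellular protein of the CCN family, read 3841.6, 4026.0, 2683.2 and 2340.3 in FP-KO lungs, against 6539.7, 6291.3, 4369.7 and 5201.5 in WT lungs. The groups did not overlap, and the difference was -0.83 ± 0.31 (adjusted p = 0.4558). Ankrd1, a nuclear ankyrin-repeat protein of muscle and stretched cells, read 1508.6, 1683.4, 1080.5 and 1031.9 in FP-KO lungs, against 2693.6, 2551.6, 1532.9 and 1819.7 in WT lungs. Here FP-KO mouse No. 2 lay above the lowest WT lung, while mice of the same set did not overlap, and the difference was -0.67 ± 0.18 (adjusted p = 0.3128). With the mouse number as a block within each day both passed (adjusted p = 0.0481 each), but neither passed with the block across days or on the 8 Day 7 arrays alone, and Ankrd1 was singled out for that reason after its values were seen.

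The promoters of Ccn1, Ankrd1 and Thbs4, 250 bases upstream of each start, are shown because, Ptgfr itself aside, these genes and Eln were lower in FP-KO lungs and passed with the mouse number as a block within each day. Eln had no entry. Of 9 genes looked up in the RefSeq promoter table (GRCm38.p6), chosen after the values were seen, 5 had an entry. Capitals mark each GGAATG or, on the other strand, CATTCC, the core bound by TEAD factors, the DNA-binding partners of YAP and TAZ. The search was made on both strands after the values were seen.
Ccn1, chr3:145649986-145650235, minus strand: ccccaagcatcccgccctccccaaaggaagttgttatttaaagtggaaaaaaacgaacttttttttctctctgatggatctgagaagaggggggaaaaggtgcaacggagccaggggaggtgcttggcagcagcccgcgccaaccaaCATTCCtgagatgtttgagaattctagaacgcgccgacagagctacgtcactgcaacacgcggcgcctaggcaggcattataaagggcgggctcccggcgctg
Ankrd1, chr19:36119845-36120094, minus strand: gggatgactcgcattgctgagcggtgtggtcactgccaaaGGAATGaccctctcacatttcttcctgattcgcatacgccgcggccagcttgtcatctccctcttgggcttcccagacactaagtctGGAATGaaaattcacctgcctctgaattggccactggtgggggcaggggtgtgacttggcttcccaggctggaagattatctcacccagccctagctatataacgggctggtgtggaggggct
Thbs4, chr13:92794819-92795068, minus strand: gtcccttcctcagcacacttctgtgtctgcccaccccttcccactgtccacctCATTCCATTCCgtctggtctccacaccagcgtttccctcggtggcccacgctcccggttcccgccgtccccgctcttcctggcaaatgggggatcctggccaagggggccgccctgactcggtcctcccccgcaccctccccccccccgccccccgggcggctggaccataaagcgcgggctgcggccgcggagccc
Ccn1 holds 1 match, 103 bases before the start, Ankrd1 holds 2, at 210 and 123 bases, and Thbs4 holds 2 that overlap by 1 base, at 197 and 192 bases. Of 32851 promoters of this length in the table, 12.6% hold at least 1 match and 1.02% hold 2 or more. A match is a description of the letters, and binding was not measured.

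Egr2, a zinc-finger transcription factor of the immediate-early class, read 536.2, 481.8, 442.9 and 355.1 in FP-KO lungs, against 1112.7, 979.8, 600.0 and 802.3 in WT lungs. The groups did not overlap, with a difference of -0.89 ± 0.19 (adjusted p = 0.2266) on Day 7 and 0.02 on Day 0. Of 21 immediate-early genes tested, 15 were lower and 6 higher in FP-KO lungs, with a median of -0.15. Junb, an AP-1 subunit, differed by -0.49 and Fosl2, another, by -0.33, while Nr4a2, an orphan nuclear receptor, was higher without overlap on the normalized scale, by 0.32. Its other probe sets that read above the floor in every Day 7 lung differed by -0.13, -0.0002 and -0.13. The 18 genes of Gq signalling and calcium targets were split 9 and 9, with a median of 0.00. None of either list passed.

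The prostanoid pathway beyond Ptgfr showed small differences. Of 7 genes tested in the prostanoid receptor list, 6 were lower, Ptgfr the only one to pass. The list also holds Ptgfrn, a membrane protein that is not itself a prostanoid receptor. Ptger3, the EP3 receptor of prostaglandin E2, read 209.1, 180.6, 256.6 and 208.1 in FP-KO lungs, against 257.5, 218.9, 274.9 and 341.2 in WT lungs, a difference of -0.33 ± 0.20 with overlapping groups. Ptgir, the prostacyclin receptor, differed by -0.26, and Ptgs2, the inducible cyclooxygenase, by -0.13. Hpgd, the dehydrogenase that inactivates prostaglandins, read 12246.3, 14937.8, 14520.9 and 13804.8 in FP-KO lungs, against 9021.9, 10996.8, 12455.2 and 9205.0 in WT lungs. Of the 4 FP-KO lungs 3 lay above every WT lung, and the difference was 0.36 ± 0.09 (adjusted p = 0.28). Ptges2, a membrane prostaglandin E synthase, was higher without overlap, by 0.32 ± 0.14 (adjusted p = 0.5102), with 6 of 14 genes of synthesis and breakdown higher and 8 lower.

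Other leading genes below the threshold were higher in FP-KO lungs. Pdgfd, a growth factor of the PDGF family, read 820.5, 927.4, 859.9 and 815.7 in FP-KO lungs, against 468.0, 660.4, 636.6 and 609.3 in WT lungs, 0.55 ± 0.10 (adjusted p = 0.1603). Fli1, an ETS factor of endothelial and blood cells, read 1597.5, 1533.1, 1451.7 and 1581.4 in FP-KO lungs, against 1248.1, 1167.8, 1054.3 and 1210.5 in WT lungs, 0.39 ± 0.08 (adjusted p = 0.2045). A second Fli1 probe set differed by 0.03, at 529.6 to 624.2 in FP-KO lungs and 467.6 to 745.8 in WT lungs, so the probe sets of Fli1 disagree. Dnah8, an axonemal dynein heavy chain, read 340.1, 238.4, 280.1 and 294.4 in FP-KO lungs, against 170.3, 141.7, 120.5 and 195.1 in WT lungs, 0.93 ± 0.18 (adjusted p = 0.2045). None of the 3 overlapped between groups. Cdh16, a cadherin, differed by 1.15, and Otud1, a deubiquitinase, by 0.50, both without overlap. Among lower genes without overlap, Dab2, an endocytic adaptor of macrophages and epithelium, differed by -0.35, Wfs1, a protein of the endoplasmic reticulum, also by -0.35, Hspb7, a small heat-shock protein of muscle, by -0.66, and Sardh, a mitochondrial dehydrogenase, by -0.67.

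To look past single genes, 61 lists with at least 3 tested members were described by the number of members higher and lower, the number without overlap, and the median difference. The collagen, macrophage and other matrix lists had the lowest medians, and the natural killer (NK) and T cell lists the highest. For any gene tested, 51.1% of differences were positive and 48.9% negative. The members of a list share cells and arrays and are not independent, and the lists were drawn up with earlier results of these data known.

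**Figure D2:**
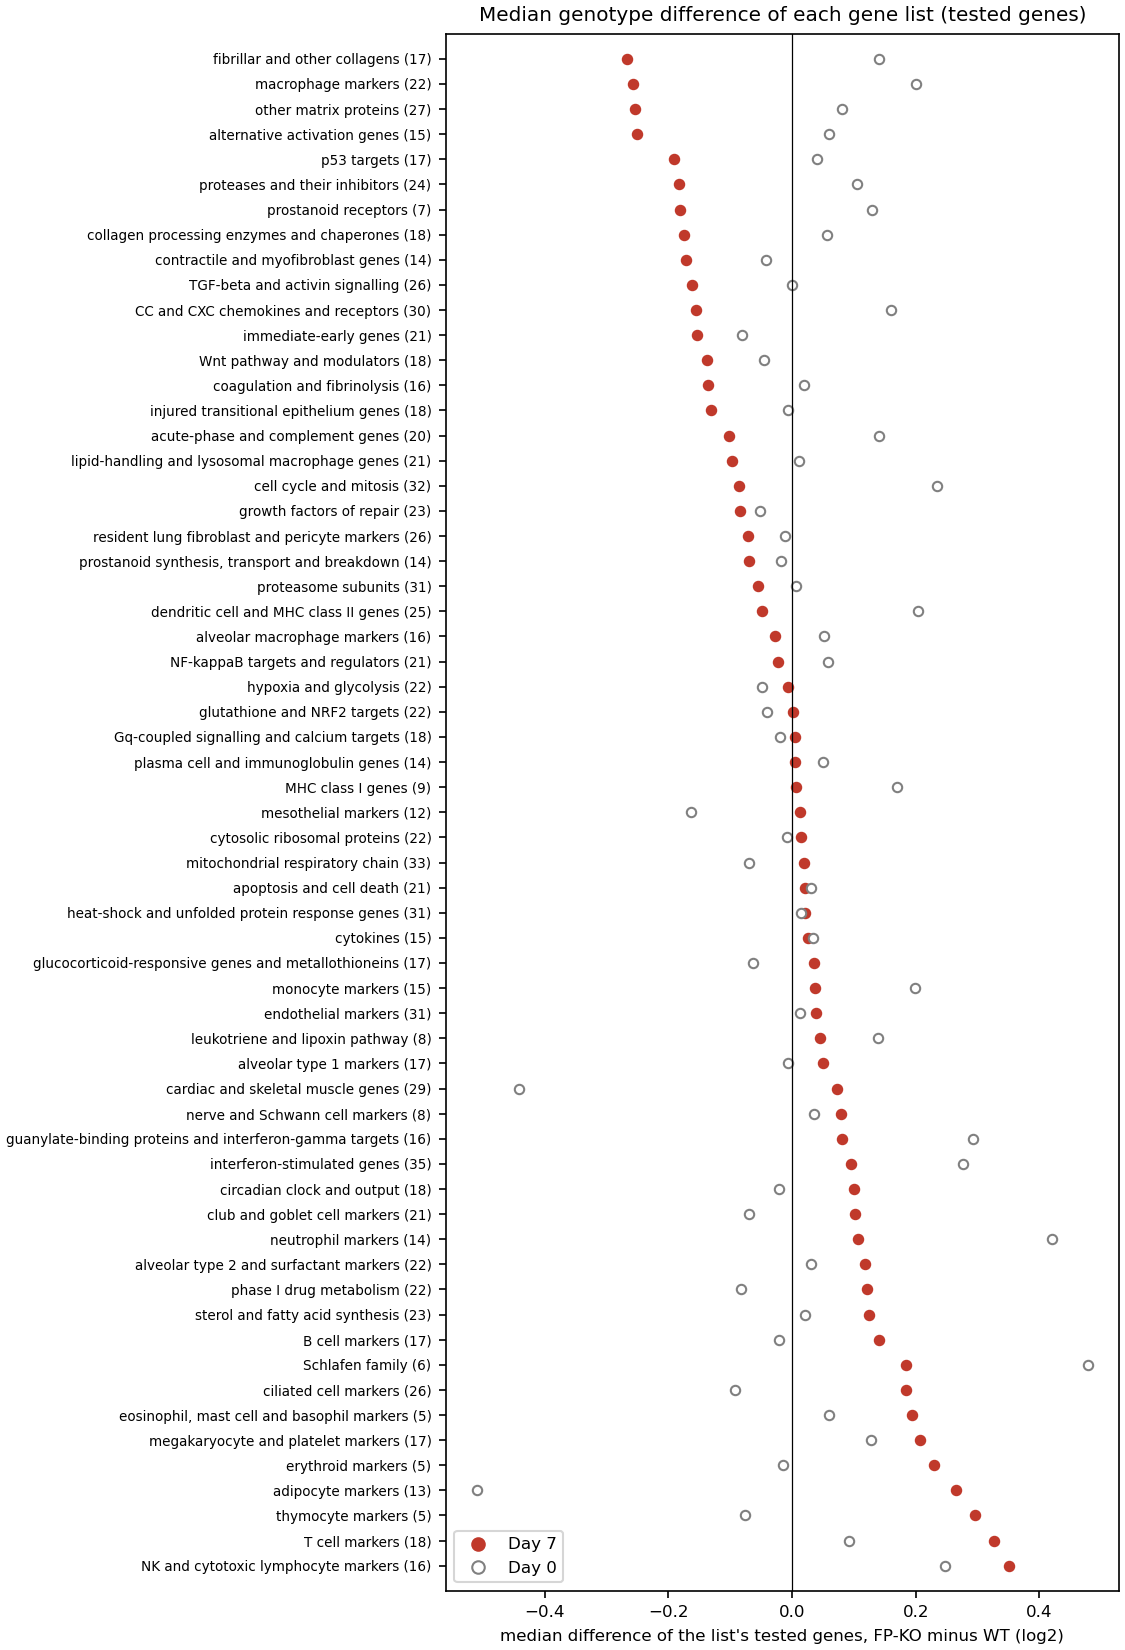
Median FP-KO minus WT difference (log2) of each of 61 gene lists, filled red for Day 7 and open grey for Day 0, ordered by the Day 7 value. NK and cytotoxic lymphocytes (0.35) and T cells (0.33) lie at the high end and collagens (-0.27), macrophages (-0.26) and other matrix proteins (-0.25) at the low end, where the Day 0 medians have the opposite sign (0.14, 0.20 and 0.08).

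Collagens were lower in FP-KO lungs. Of 17 collagen genes, 15 were lower and 2 higher, 8 did not overlap between the groups (47.1% of the list, against 2.73% of all genes in that direction), and the median was -0.27, with -0.35 among mice No. 1 and 2 and -0.26 among mice No. 3 and 4. Col1a1 was the farthest. None passed alone. On Day 0 the list had a median of 0.14, with 14 members higher.

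The type I partner chain Col1a2 read 11975.6, 10455.2, 11906.5 and 9741.1 in FP-KO lungs, against 12414.5, 15575.3, 13516.2 and 13096.3 in WT lungs, -0.39 ± 0.11 (adjusted p = 0.3367). Col3a1, the collagen of early scar, differed by -0.23 ± 0.14 and did not overlap on the normalized scale, although its deposited intensities of 18993.8 to 25117.1 in FP-KO lungs and 22310.5 to 28468.9 in WT lungs do. The type VI chains, which form a beaded network around cells, were all 3 lower without overlap, Col6a1 by -0.27, Col6a2 by -0.31 and Col6a3 by -0.33. So were both basement membrane type IV chains tested, Col4a1 by -0.19 and Col4a2 by -0.35. Col5a2, which sets the width of type I fibrils, differed by -0.44 ± 0.17 and Col15a1, of basement membranes, by -0.51 ± 0.17. Both overlapped on the normalized scale. The deposited intensities of Col15a1, 240.1 to 343.3 in FP-KO lungs and 345.8 to 439.8 in WT lungs, do not overlap. The exceptions were Col14a1, a fibril-associated collagen, at 0.07, and Col5a3 at 0.01.

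Most other matrix proteins were also lower in FP-KO lungs without passing. Of 27 tested, 22 were lower and 5 higher, 7 were lower without overlap (against 2.73% of all genes) and 1 higher (against 2.68%), and the median was -0.25, with -0.27 and -0.32 in the 2 mouse sets. Eln, the elastic fibre protein, read 5403.3, 3841.9, 3152.5 and 2169.9 in FP-KO lungs, against 8658.6, 11606.7, 6615.6 and 6060.4 in WT lungs, -1.21 ± 0.31 (adjusted p = 0.28). Each FP-KO lung was far below the WT lung of its number, and with the mouse number as a block Eln passed (adjusted p = 0.0481 within days and 0.00456 across days), but not with the block on the 8 Day 7 arrays alone. Its Day 7 minus Day 0 rise was 1.81 in FP-KO lungs and 3.16 in WT lungs (adjusted p = 0.0007832 and 2.916e-06). Fn1, the provisional-matrix protein fibronectin, read 17245.9, 14783.3, 17427.4 and 11649.0 in FP-KO lungs, against 20048.0, 25979.3, 17412.1 and 15852.4 in WT lungs, -0.47 ± 0.13 (adjusted p = 0.3367).

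Ccn2, the connective tissue growth factor, read 9142.4, 9904.6, 9238.8 and 9297.1 in FP-KO lungs, against 15034.5, 16511.4, 10408.7 and 10795.9 in WT lungs. All WT lungs were higher, -0.52 ± 0.14 (adjusted p = 0.3061), while on Day 0 Ccn2 differed by 0.35. It rose by 0.98 by Day 7 in WT lungs (adjusted p = 5.592e-05) and differed by 0.11 in FP-KO lungs, and the interaction of -0.88 ± 0.19 had an adjusted p of 0.5333. Fbln2, an elastic fibre and basement membrane protein, differed by -0.61 ± 0.15 and Bgn, the proteoglycan biglycan, by -0.33 ± 0.08, both without overlap. Tnc, tenascin-C of injured tissue, differed by -0.71 ± 0.30 and Thbs1, an activator of latent TGF-beta, by -0.54 ± 0.20, with overlap.

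Several small proteoglycans and fibre proteins did not share this. Dcn, decorin, which binds collagen and TGF-beta, read 4543.0, 4776.0, 5600.2 and 4863.9 in FP-KO lungs, against 4493.8, 4070.6, 4230.1 and 4263.7 in WT lungs, higher without overlap by 0.19 ± 0.09 (adjusted p = 0.5335). Ecm2 differed by 0.61, Efemp1, fibulin-3, by 0.30, Lum, lumican, by 0.20 and Postn, periostin, by 0.06. None of these passed.

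**Figure D3:**
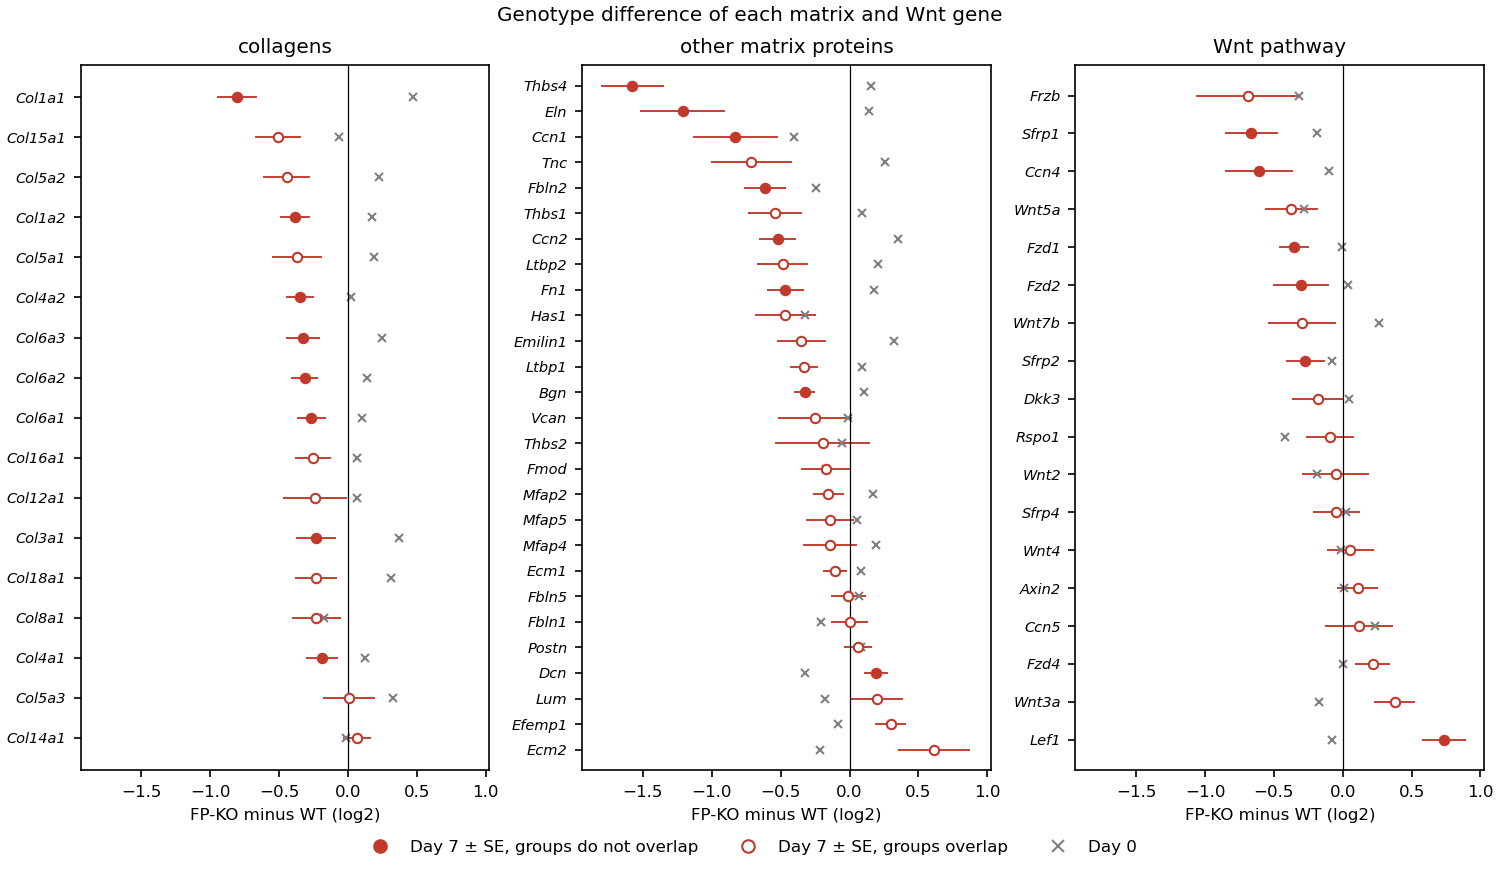
FP-KO minus WT difference on Day 7 (log2, with standard error) of each tested collagen, other matrix gene and Wnt gene, filled where the 4 FP-KO and 4 WT lungs do not overlap, with a cross at the Day 0 difference. Most members lie left of 0 on Day 7, from -1.58 for Thbs4, while Lef1 (0.73), Ecm2 (0.61) and Dcn (0.19) lie right of it.

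Genes that assemble and cut matrix were lower by less. Of 18 collagen processing genes 15 were lower, median -0.18. Lox, which cross-links collagen and elastin, was farthest (-0.66 ± 0.33) with overlap, while Loxl1, an oxidase that cross-links elastin (-0.35 ± 0.10), and Sparc, a collagen-binding protein (-0.26 ± 0.08), were lower without overlap. Of 24 proteases and inhibitors 21 were lower, median -0.18, with Mmp14, the membrane-anchored collagenase (-0.39 ± 0.11), Mmp2, the gelatinase it activates (-0.29 ± 0.14), and Ctsd, a lysosomal protease (-0.18 ± 0.08), lower without overlap. Contractile genes were lower in 11 of 14, median -0.17, or -0.108 without WT mouse No. 2, and -0.23 among mice No. 1 and 2 but -0.03 among mice No. 3 and 4, with Tagln, an actin-binding protein of smooth muscle and myofibroblasts (-0.41 ± 0.11), and Tpm1, tropomyosin (-0.25 ± 0.09), lower without overlap.

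TGF-beta and Wnt genes differed in the same range. Of 26 TGF-beta and activin genes 20 were lower, median -0.16, and Tgfb3, a TGF-beta ligand (-0.27 ± 0.10), and Tgfbr2, its receptor (-0.15 ± 0.07), did not overlap. Fstl3, an activin antagonist, differed by -0.42 ± 0.14 and Pmepa1, a feedback inhibitor induced by TGF-beta, by -0.31 ± 0.12. Among 18 Wnt genes 12 were lower, median -0.14, or -0.063 without WT mouse No. 3, with -0.05 among mice No. 1 and 2 and -0.20 among mice No. 3 and 4, and 5 were lower without overlap (27.8%, against 2.73% of all genes). These were Sfrp1 (-0.66 ± 0.19) and Sfrp2 (-0.27 ± 0.15), secreted antagonists, the receptors Fzd1 (-0.36 ± 0.11) and Fzd2 (-0.30 ± 0.20), and Ccn4, a Wnt-induced CCN protein (-0.61 ± 0.25). Lef1, a nuclear effector that T cells also use, went the other way, at 246.2, 243.6, 297.1 and 270.3 in FP-KO lungs and 172.0, 157.6, 180.3 and 142.3 in WT lungs, 0.73 ± 0.16 (adjusted p = 0.2266).

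The median difference of Day 7 minus Day 0 was 0.46 in FP-KO and 0.95 in WT lungs for collagens, 0.46 in FP-KO and 0.69 in WT lungs for other matrix proteins, and 0.75 in FP-KO and 1.05 in WT lungs for proteases. These values share the Day 7 lungs with the genotype comparison. Without FP-KO mouse No. 4, the lung nearest to Day 0 on the first component, the Day 7 genotype median of the other matrix proteins was -0.134, against -0.254 with it, that of the collagens was -0.239 and that of the TGF-beta genes was -0.095, against -0.161 with it.

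Macrophage markers were lower in FP-KO lungs. Of 22, 21 were lower and 1 higher, and 2 were lower without overlap (9.09%, against 2.73% of all genes). These markers had a median of -0.26, against 0.20 on Day 0. Their mean log2 intensity per lung was 11.7, 11.66, 11.41 and 11.29 in FP-KO mice, against 11.81, 11.93, 11.62 and 11.69 in WT mice, so FP-KO mice No. 1 and 2 lay among the WT values. The median difference of Day 7 minus Day 0 was 0.90 in FP-KO lungs and 1.47 in WT lungs.

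Apoe, the lipoprotein that macrophages secrete, read 11316.9, 9732.8, 7919.9 and 9451.0 in FP-KO lungs, against 13448.6, 12689.7, 12528.6 and 11840.7 in WT lungs, -0.47 ± 0.14 (adjusted p = 0.3605), with no overlap. Itgam, the CD11b integrin, also did not overlap on the normalized scale, at -0.25 ± 0.16. Adgre1, the F4/80 antigen, differed by -0.35 ± 0.12, Csf1r, the macrophage growth factor receptor, by -0.27 ± 0.09 and C3ar1, the receptor of complement C3a, by -0.63 ± 0.19. Of 15 alternative activation genes 12 were lower, median -0.25, or -0.138 without WT mouse No. 2, Mrc1, the mannose receptor, by -0.40 ± 0.16. Igf1, a growth factor that lung macrophages and fibroblasts make, read 3002.4, 2090.3, 1955.2 and 1327.2 in FP-KO lungs, against 3100.7, 4801.0, 2918.0 and 3477.5 in WT lungs, -0.79 ± 0.21 (adjusted p = 0.3325). Resident alveolar macrophage markers were split, 7 higher and 9 lower, with a median of -0.03. Monocyte markers were split 8 and 7, with a median of 0.04.

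**Figure D4:**
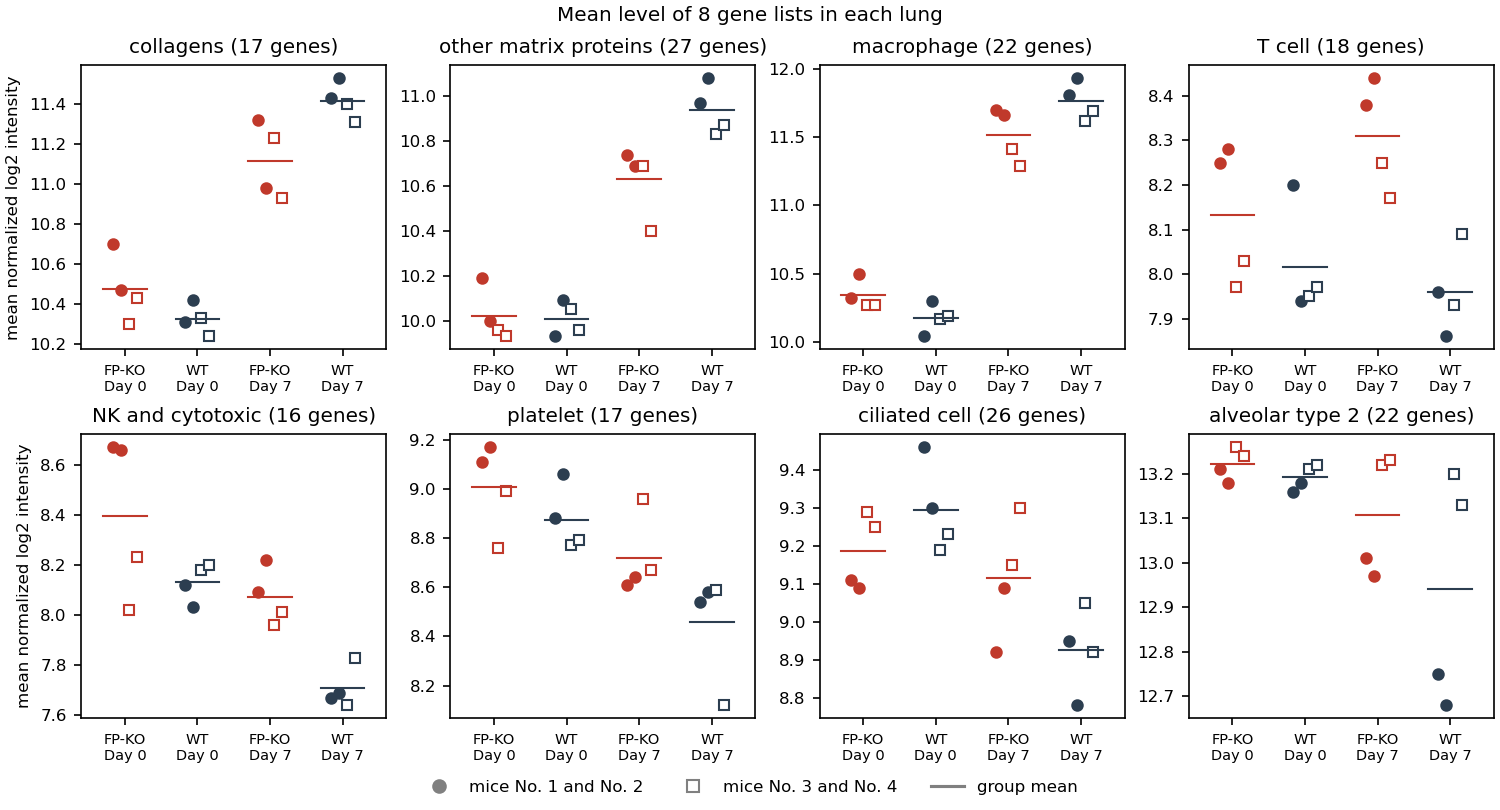
Mean normalized log2 intensity of 8 gene lists in each lung, for FP-KO and WT on Day 0 and Day 7, 1 point per mouse. On Day 7 the T cell, NK and platelet lists lie higher in every FP-KO lung than in any WT lung, and the other matrix list lies lower in every FP-KO lung, while the collagen, macrophage, ciliated and alveolar type 2 lists overlap between the genotypes.

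T cell markers were higher in FP-KO lungs, all 18 that were tested of 31 listed, with 6 not overlapping (33.3%, against 2.68% of all genes in that direction) and a median of 0.33. The list averaged 8.38, 8.44, 8.25 and 8.17 log2 units per lung in FP-KO mice, against 7.96, 7.86, 7.93 and 8.09 in WT mice. Every FP-KO lung lay above every WT lung, and the median difference was 0.44 among mice No. 1 and 2 and 0.21 among mice No. 3 and 4. On Day 0 the median was 0.09.

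Cd3d, a chain of the T cell receptor complex, read 1026.8, 1001.2, 813.1 and 759.3 in FP-KO lungs, against 600.8, 638.0, 614.5 and 686.7 in WT lungs, 0.50 ± 0.12 (adjusted p = 0.28). Cd3e, another chain, read 185.6, 172.4, 227.4 and 228.9 in FP-KO lungs, against 152.6, 139.2, 86.0 and 138.7 in WT lungs, 0.72 ± 0.26. Cd8a, of the co-receptor of cytotoxic T cells, differed by 0.51 ± 0.21, and Cd28, Icos and Lat, which costimulate or relay the receptor signal, by 0.38, 0.35 and 0.28. Those 6 did not overlap on the normalized scale. The deposited intensities of Cd28, 194.9 to 270.8 in FP-KO lungs and 141.5 to 224.3 in WT lungs, do overlap. So do those of Lat, 408 to 531.7 in FP-KO lungs and 349.5 to 427 in WT lungs. A second Icos probe set differed by -0.12, at 144 to 213.1 in FP-KO lungs and 179.9 to 207.5 in WT lungs, and another by 0.49. The other Cd8a probe sets that read above the floor in every Day 7 lung differed by 0.37, 0.23 and 0.29. Their deposited intensities overlap between the groups. Zap70, the receptor's kinase, differed by 0.70 ± 0.33 with overlap, since WT mice No. 1 and 4 read 604.0 and 548.7. The receptor gene segments Trbv1 (0.52 ± 0.11) and Trgv4 (0.68 ± 0.16), were among the leading higher genes without overlap.

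NK and cytotoxic markers were higher in 15 of 16, with 6 not overlapping (37.5%, against 2.68% of all genes) and a median of 0.35, or 0.51 among mice No. 1 and 2 and 0.16 among mice No. 3 and 4. Each lung's mean over the list was 8.09, 8.22, 7.96 and 8.01 in FP-KO mice, against 7.67, 7.69, 7.64 and 7.83 in WT mice, again without overlap. Prf1, perforin, read 193.4, 147.7, 172.0 and 206.7 in FP-KO lungs, against 104.0, 99.5, 112.7 and 91.6 in WT lungs, 0.85 ± 0.17 (adjusted p = 0.2045). Gzma, granzyme A, read 1613.3, 1991.7, 1790.2 and 1480.8 in FP-KO lungs, against 1119.9, 957.4, 1050.3 and 1177.9 in WT lungs, 0.66 ± 0.18 (adjusted p = 0.3325). The receptors Klre1 (0.68 ± 0.20), Klrk1 (0.44 ± 0.15) and Klra8 (0.47 ± 0.22), and Gzmb, granzyme B (0.50 ± 0.20), were also higher without overlap. Il2rb was the lower member, at -0.19.

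The NK list already had a median of 0.25 on Day 0, with 15 of 16 members higher in FP-KO lungs, and its median interaction was 0.09. Day 7 minus Day 0, its median difference was -0.37 in FP-KO lungs and -0.48 in WT lungs. B cell markers were higher in 14 of 17, with a median of 0.14, or 0.046 without WT mouse No. 2, Cd79b of the antigen receptor by 0.55 ± 0.23. Plasma cell genes were split 8 and 6, with a median of 0.01.

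Platelet genes were higher in 11 of 17, with a median of 0.21, or 0.09 among mice No. 1 and 2 and 0.40 among mice No. 3 and 4. Without overlap 3 were higher (17.6%, against 2.68% of all genes) and 2 lower (11.8%, against 2.73%). Gp9, of the von Willebrand receptor, read 162.6, 127.4, 208.9 and 168.8 in FP-KO lungs, against 88.2, 91.2, 140.7 and 25.8 in WT lungs, 1.19 ± 0.39 (adjusted p = 0.3862), or 0.69 without WT mouse No. 4. On the deposited scale FP-KO mouse No. 2 lay below WT mouse No. 3, while on the normalized scale the groups did not overlap. Tubb1, the platelet tubulin, read 434.4, 395.7, 658.6 and 576.1 in FP-KO lungs, against 311.3, 310.8, 352.7 and 202.5 in WT lungs, 0.85 ± 0.20 (adjusted p = 0.262). Ppbp, a platelet chemokine, differed by 0.95 ± 0.24 and Gp5 by 0.47 ± 0.15.

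The 2 platelet genes that were lower without overlap, Selp, P-selectin (-0.42 ± 0.16), and Vwf, von Willebrand factor (-0.33 ± 0.11), are also made by endothelium. WT mouse No. 4 had the lowest platelet level, 8.12 against 8.54 to 8.59 in the other WT lungs, and without it the list's median difference was 0.136. The 5 erythroid genes tested, whose median difference was 0.23 and -0.106 without WT mouse No. 1, averaged 9.32, 10.02, 9.83 and 10.2 in FP-KO lungs and 8.18, 10.1, 10.07 and 9.72 in WT lungs, WT mouse No. 1 being the low lung. Blood left in the vessels carries all of these transcripts with lymphocyte ones, and its part in the result was not tested.

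**Figure D5:**
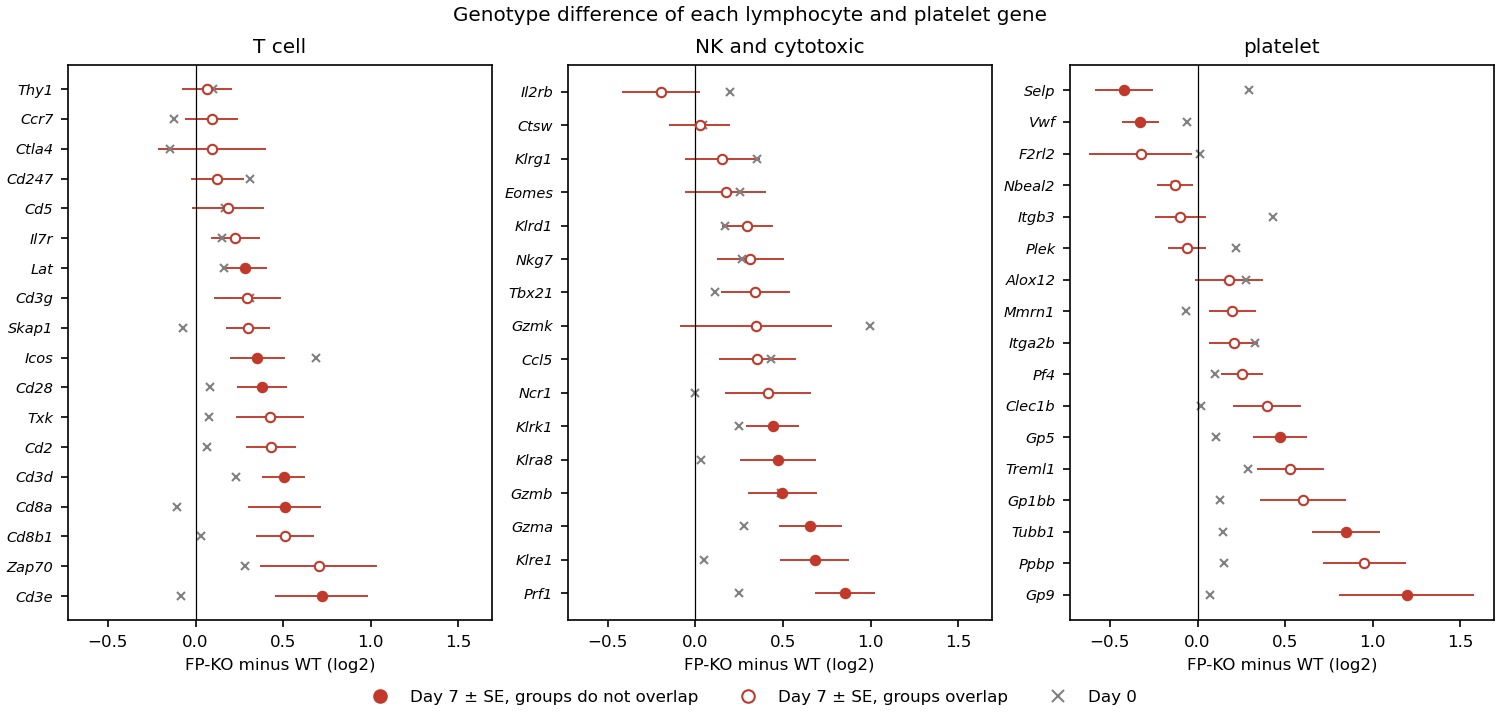
FP-KO minus WT difference on Day 7 (log2, with standard error) of each tested T cell, NK and platelet marker, filled where the 4 FP-KO and 4 WT lungs do not overlap, with a cross at the Day 0 difference. All 18 T cell markers and 15 of 16 NK markers lie right of 0, and platelet markers lie on both sides, from -0.42 for Selp to 1.19 for Gp9.

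Inflammatory mediators were not uniformly lower. Of 15 cytokines, 8 were higher and 7 lower, with a median of 0.03. Il6 read 142.9, 82.8, 160.2 and 118.9 in FP-KO lungs, against 195.5, 544.2, 86.4 and 205.6 in WT lungs, -0.73 ± 0.40 with overlap, WT mouse No. 2 being the highest. Lif and Osm, of the same cytokine family, differed by -0.58 ± 0.25 and -0.66 ± 0.32. Chemokines and their receptors were lower in 21 of 30, with a median of -0.16 that ran from -0.28 to 0.01 as each lung was left out, the last without WT mouse No. 2. Ccl11, eotaxin, which attracts eosinophils, differed by -0.88 ± 0.39, WT mouse No. 2 again the highest at 830.1. Serpina3n, an acute-phase protease inhibitor, differed by -0.54 ± 0.18, and 14 of 20 acute-phase and complement genes were lower.

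Interferon genes, neutrophil markers and cell cycle genes had medians farther from 0 on Day 0 than on Day 7, a contrast that was not tested. Interferon-stimulated genes had a median of 0.09 on Day 7 and 0.28 on Day 0, with 32 of 35 higher on Day 0 and 29 on Day 7. On Day 7 the median was 0.31 among mice No. 1 and 2, -0.01 among mice No. 3 and 4, 0.251 without WT mouse No. 4 and 0.036 without WT mouse No. 1. Neutrophil markers had medians of 0.11 and 0.42 on Day 7 and Day 0, with 0.013 on Day 7 without FP-KO mouse No. 3, and -0.23 among mice No. 1 and 2 against 0.32 among mice No. 3 and 4, so their sign turns between the sets. Cell cycle genes had medians of -0.09 and 0.24 on Day 7 and Day 0. On Day 7 their median was 0.24 among mice No. 1 and 2 and -0.45 among mice No. 3 and 4, so it has no single direction, and it was 0.095 without FP-KO mouse No. 4.

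Epithelial lists were slightly higher in FP-KO lungs, except that of injured cells. Ciliated cell markers were higher in 25 of 26, none without overlap, with a median of 0.18, against -0.09 on Day 0, 0.12 and 0.27 in the 2 mouse sets, and 0.107 without WT mouse No. 2. Tekt4, a tektin of the axoneme, differed by 0.33 ± 0.11. Alveolar type 2 markers were higher in 20 of 22 with a median of 0.12, or 0.02 without WT mouse No. 1, Chia1, an acidic chitinase, by 0.62 ± 0.16 and S100g, a calcium-binding protein, by 0.62 ± 0.21. Club cell markers were higher in 17 of 21, with a median of 0.10. Genes of transitional epithelium were lower in 16 of 18, median -0.13, or -0.085 without WT mouse No. 1. Without overlap 1 member was lower (5.56%, against 2.73% of all genes), Krt7, a keratin, by -0.33 ± 0.09. In the other direction 1 was higher without overlap (5.56%, against 2.68%), and the highest member was Cldn3, a claudin, at 0.18.

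Endothelial markers had a median of 0.04, from -0.057 without FP-KO mouse No. 4 to 0.106 without FP-KO mouse No. 2, with Icam2, an adhesion molecule, at 0.37 ± 0.10 and Emcn, endomucin, at 0.36 ± 0.14, and Vwf at the lower side as given above. Resident fibroblast and pericyte markers had a median of -0.07, or -0.003 without WT mouse No. 4 and -0.033 without WT mouse No. 3, 10 higher and 16 lower, beside -0.27 for collagens; the difference between these lists was not tested. Adipocyte markers had a median of 0.26 on Day 7, or 0.048 without FP-KO mouse No. 3, and of -0.51 on Day 0, and Adipoq, adiponectin, read 589.7, 834.0, 1825.2 and 1149.8 in FP-KO lungs and 1076.3, 594.7, 561.6 and 814.2 in WT lungs. Muscle genes had medians of 0.07 and -0.44 on the same days, and on Day 7 -0.043 without WT mouse No. 1, -0.039 without No. 2 and 0.171 without No. 4, with 0.24 and -0.10 in the 2 mouse sets. The tissue that these adipocyte and muscle transcripts came from, and its part in the result, was not tested.

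Several housekeeping, stress and signalling lists were near the all-gene median, while sterol synthesis, coagulation and p53 lists lay farther from it. Ribosomal proteins (0.02), the respiratory chain (0.02), heat-shock and unfolded protein response genes (0.02), glutathione and NRF2 targets (0.00), hypoxia and glycolysis (-0.01) and NF-kappaB targets (-0.02) differed little in the median. Sterol and fatty acid synthesis genes were higher in 19 of 23, with a median of 0.12, or 0.055 without WT mouse No. 1, and Insig1, a sterol sensor (0.46 ± 0.21), Acly, ATP citrate lyase (0.22 ± 0.09), and Stard4, a cholesterol carrier (0.21 ± 0.11), did not overlap. Proteasome subunits were lower in 20 of 31, with a median of -0.05. Coagulation genes were lower in 13 of 16, with a median of -0.14, or -0.081 without FP-KO mouse No. 4, F13a1, the A chain of factor XIII, by -0.50 ± 0.19. Targets of p53 were lower in 12 of 17, with a median of -0.19, Aen, an apoptosis nuclease, by -0.28 ± 0.09.

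The baseline lungs set a scale for these differences. On Day 0, 2 genes were called (0.0166%), Ptgfr and Ifi44l, 468 had an unadjusted p under 0.05 (3.88%) and 255 did not overlap (2.11%), against 1098 (9.1%) and 652 (5.41%) on Day 7. Whether the genotype difference itself changed between the days was tested as an interaction, where 0 genes passed in limma, with 977 at an unadjusted p under 0.05 (8.1%), 524 of them positive (4.34%) and 453 negative (3.76%). Its smallest p-values were those of Col1a1, Ifi44l and Thbs4. Among the next, Fgfbp1, a carrier of fibroblast growth factors, had an interaction of 1.01 ± 0.23, Plxnb3, a semaphorin receptor, of -1.14 ± 0.26, and Loxl1 of -0.64. By Day 7, 1663 genes rose (13.8%) and 1437 fell (11.9%) in FP-KO lungs, against 2168 (18%) and 2273 (18.8%) in WT lungs. These counts share their lungs with the genotype comparison.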

How the data were processed

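Lung RNA of 25 mice was measured, 13 WT and 12 FP-KO, with groups and mouse numbers taken from the sample titles. Per the labels' protocols, 6 ug of total RNA, extracted with Sepasol, was made into biotin-labelled cRNA for the arrays. The deposited values are linear intensities per probe set, and the authors scaled every array so that its mean, with 2% of values trimmed from both ends, is 500, as found in the values. Their software is not named in the labels or headers used. Separate mice are assumed from the titles, and p-values measure the spread between these arrays.

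Intensities were floored at 24.3, the 20th percentile, taken to log2 and quantile-normalized over 25 arrays, because array medians spanned 0.432 log2 units, above the limit of 0.3. Of 45101 probe sets, 64 controls, 932 that name more than 1 gene and 9160 that name none in the platform annotation were left out of the gene tests, and 34741 of the remaining 34945 matched a RefSeq gene by its number. The probe set of highest mean stood for each of 18193 genes, and 12062 genes that exceeded the array's median on 4 or more arrays were tested. Levels of different probe sets were not compared.

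A single limma model (limma 3.58.1 in R 4.3.3, package data.table of version 1.17.8, lmFit and eBayes) was fitted to the 16 arrays of Day 0 and Day 7, with 12 residual degrees of freedom. The 9 Day 14 arrays were left out because they fall in separate sets inside each genotype, and all 25 arrays are an alternative. A gene was called at a p under 0.05 after Benjamini-Hochberg adjustment over the genes tested. Python 3.11.15 with matplotlib 3.10.9 drew the figures. The fit was also run on simulated data with known differences as a check of the code, and the outcome is not given here. Alternatives were other scalings, floors, filters and probe set rules, trend and robust eBayes, array weights, other sets of arrays, the mouse number as a block, each mouse left out, and, chosen after seeing the data, a term for mice No. 1 and 2 against No. 3 and 4.

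The labels name no pairs, so pairing by mouse number was checked from the values. The FP-KO and WT mouse of the same number deviated together from their group means, with correlations of 0.221, 0.155, 0.141 and 0.215 on Day 7 and of 0.345, 0.147, 0.119 and 0.207 on Day 0, all above 0.1. Mice of different numbers in the same set also correlated on Day 7, from 0.0676 to 0.294. Some of these values exceeded those of mice of the same number. The Day 7 values therefore do not tell pairs of mice apart from sets of mice. On Day 0 mice of different numbers in the same set ranged from -0.114 to 0.19. Since all same-number values passed the limit of 0.1, the mouse number was used as a block among the alternatives. The main model holds no block, and the blocked value is given where it changes a call.

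The comparison and its 63 gene lists, 61 with at least 3 tested members, were chosen with earlier results of these data known. Named genes were Ptgfr, up to 15 genes each way by size among those that passed and then by smallest p, up to 5 each way by smallest p for the interaction, up to 4 members of each list, and all members of lists with at least 25% of members not overlapping between groups. Lox, Mmp2, Tgfbr2, Itgam, Ptgs2, Nexn, Adgrl4 and Ankrd1 lie outside this rule and were chosen after their values were seen. Promoter sequences are those of RefSeq (GRCm38.p6), where 5 of 9 genes looked up had an entry.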

Additional observations from a re-analysis of the deposited data

Results flagged for a closer look

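In 16 of 254 groups of 4 lungs examined, for the named genes and list means on Day 7, 1 lung stood apart from the other 3, relative to the spread of its group, by Dixon's ratio of its gap to the group's range at its 95% limit. Chance gives such a lung in about 1 of 20 groups. Levels below are normalized log2 intensities.

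FP-KO mouse No. 4 was the low lung for Thbs4 (ratio 0.85, at 5.41 against 6.43 to 6.61 in the other FP-KO lungs), Ccn4 (0.94), Fzd2 (0.884), Itgam (0.973, at 8.1 against 8.36 to 8.37) and the mean of the other matrix proteins (0.83, at 10.4 against 10.69 to 10.74), and the high lung for Cdh16 (0.852). Thbs4 was still called without this lung, at -1.30 (adjusted p = 0.00647, limma). FP-KO mouse No. 3 was low for Plxnb3 (0.958) and Sfrp2 (0.877) and high for the mean of the platelet list (0.847, at 8.96 against 8.61 to 8.67). FP-KO mouse No. 1 was low for Trgv4 (0.831) and Hpgd (0.901).

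Among WT lungs, mouse No. 4 was low for Tubb1 (0.839, at 7.63 against 8.32 to 8.46) and for the platelet list (0.898, at 8.12 against 8.54 to 8.59). Mouse No. 1 was high for Dab2 (0.859). Mouse No. 2 was high for Col4a1 (0.876, at 14.15 against 13.9 to 13.93) and low for Bgn (0.886), where it lay at 14.16 against 14.17 to 14.18, a gap that is small on the log2 scale.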

How the results depend on the processing

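The Day 7 count of 4 genes was 2 with a floor at the 10th percentile, 2 with no floor and 16 added, 2 with no filter, 2 with all 25 arrays, 1 with a filter at 12 arrays and 12 with the mouse set as a term, an alternative chosen after seeing the data. Leaving out each mouse gave 2 to 5 genes, 2 without WT mouse No. 1. With the mouse number as a replicate block the count was 6 within days, 4 across days and 1 on the 8 Day 7 arrays, where Ptgfr had -1.95 at an adjusted p of 0.109. The block ended the call of St6galnac5, and of Ptgfr and Thbs4 in that last fit, and added Eln, Ccn1 and Ankrd1 within days and, of these, Eln across days. Over 25 settings Ifi44l was called in 25, Ptgfr in 23, Thbs4 in 15, St6galnac5 in 7 and Col1a1 in 3. The cause of these changes was not tested.

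The interaction count of 0 was 3 with a floor at the 40th percentile and 1 with trend and robust eBayes. The Day 0 count of 2 was 4 with values as deposited, 5 with a floor at the 40th percentile, 1 with a filter at 12 arrays, 4 with the mean of all probe sets and 4 with the mouse set as a term. Leaving out each mouse gave 2 to 3 genes on Day 0 and 0 for the interaction.

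Over 24 alternatives the list medians ran from -0.369 to -0.237 for collagens, -0.33 to -0.134 for other matrix proteins, -0.337 to -0.193 for macrophages, 0.296 to 0.378 for T cells, 0.307 to 0.419 for NK cells, 0.107 to 0.255 for ciliated cells and 0.136 to 0.282 for platelets, with 1 sign for each. Col14a1 was -0.202 with the mean of all probe sets. Col5a3 was -0.039 with values as deposited, -0.008 with a common median, and -0.126 to 0.174 when each mouse was left out in turn. Genes near the floor, such as Ifi44l in WT lungs and Thbs4 on Day 0, have differences that the floor limits.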
